A study of Homo sapiens with 8 samples.

Results

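The transforming growth factor beta (TGF-beta) system was followed through 10 genes: 3 ligand genes (TGFB1, TGFB2 and TGFB3), 3 receptor genes (TGFBR1, TGFBR2 and TGFBR3) and 4 genes for latent TGF-beta binding proteins (LTBP1, LTBP2, LTBP3 and LTBP4). They were chosen by name, as rows of a count matrix of 59385 gene symbols, and all 10 were found. All 10 also passed the filter on low counts that left 16228 genes for testing. The cells were IHCF, an immortalized line of human cardiac fibroblasts. They carried a lentiviral short hairpin RNA (shRNA) against EIF4G2, or a scramble shRNA with no target, and EIF4G2 (also called eIF4G2) is an initiation factor related to eIF4G1 that lacks its binding site for the cap-binding protein eIF4E. All 4 groups had been deprived of serum for 6 h or more and then exposed to TGF-beta for 24 h, so no library shows cells without added TGF-beta. Total RNA and polysomal RNA (mRNA isolated with ribosomes) were each sequenced from scramble and from knockdown cells, with 2 libraries per group and 8 in all. The labels number these as biological replicates but do not say whether they were separate infections, so the tests measure the spread between these libraries. The series text speaks of triplicates, and 2 libraries per group were analysed here.

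TGF-beta is made as a precursor that is cut inside the cell but stays wrapped in its own propeptide. This latent complex is commonly joined to a latent TGF-beta binding protein, which tethers it to fibrillin and fibronectin in the extracellular matrix until integrins, proteases or other factors free the ligand. Free ligand binds the type II receptor, which phosphorylates the type I receptor, and the type I receptor phosphorylates SMAD2 and SMAD3. In cardiac fibroblasts this pathway is known for driving the change to contractile, matrix-producing myofibroblasts.

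Libraries held 18043714 to 24590030 counts. One polysome library stood apart: mitochondrial genes held 7.12% of the reads of the first scramble polysome library, against 14.5% to 17.5% for the 3 others and 3.88% to 4.21% for total RNA. Replicates spread more in polysomal RNA, where the biological coefficient of variation over all tested genes was 0.265 against 0.113 in total RNA. The tests below estimate each gene's spread over both fractions together. Intervals and p-values in polysomal RNA may thus be too narrow, and those in total RNA too wide. The targeted gene EIF4G2 stood at 793 and 784.5 CPM (counts per 1000000, after scaling) in scramble total RNA and at 293 and 327 in knockdown total RNA. In polysomal RNA it stood at 875 and 876 in scramble and at 244 and 334 in knockdown cells, so its level matched the labels in both fractions. Of 10 fibroblast markers 8 were tested, and their summed level was 5460 to 6924 CPM over the 8 libraries. It was carried by COL1A1 and VIM, while DCN and FAP were near 0 in all groups. Cardiomyocyte markers summed to 1.16 to 1.45 CPM in total RNA, 17.2 to 20.9 in scramble and 2.50 to 9.42 in knockdown polysomal RNA. Of these, MYH6 and MYH7 were at 0 in all libraries, and NPPB had means of 18.6 and 5.66 CPM in scramble and knockdown polysomal RNA. The summed endothelial level was 12.2 to 20.3 CPM and the summed leukocyte level 1.84 to 7.89 CPM. Mural cell markers, several of which fibroblasts also express, summed to 398 to 494 CPM in total RNA, 210 to 267 in scramble and 116 to 189 in knockdown polysomal RNA, with MYH11 at 0. Epithelial markers summed to 1166 to 1424 CPM in total RNA, 3131 to 3203 in scramble polysomal RNA and 2238 to 2269 in knockdown polysomal RNA, nearly all of it from KRT8 and KRT18. Their part in the results below was not tested.

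Levels are given as CPM, a gene's counts per 1000000 counts of its library after scaling by the trimmed mean of M-values (TMM), which takes most genes as equal between libraries. A level in polysomal RNA is thus relative to the other genes of that fraction and is no amount per cell. Genes are compared with each other only as CPM per kilobase of exonic sequence, with exons from GENCODE release 29 on GRCh38, the build that the submitters' processing notes name.

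TGFB1 was the most abundant of the 10 genes per kilobase in every group. It lies at chr19:41301587-41353911 on the minus strand and encodes the most widely expressed TGF-beta ligand. Per kilobase it stood at 60.5 and 64.6 in scramble total RNA. The next was TGFBR2 (chr3:30606502-30694142, plus strand), which encodes the type II receptor, at 44.8 and 43.7. TGFB2 (chr1:218346235-218444619, plus strand), which encodes a ligand that binds the type II receptor poorly without a co-receptor, followed at 20.8 and 21.0. TGFBR1 (chr9:99104038-99154192, plus strand) encodes the type I receptor kinase and stood at 9.41 and 8.94. These 4 genes kept apart from each other in scramble total RNA, with no overlap between neighbours in the order.

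The latent-binding genes came below. LTBP3 (chr11:65538805-65558930, minus strand) led them in scramble total RNA with 8.28 and 8.58 CPM per kilobase, just under TGFBR1. LTBP1 (chr2:32946972-33399509, plus strand), whose product was the first of these binding proteins to be described, stood at 4.317 and 4.096, LTBP4 (chr19:40592883-40629818, plus strand) at 3.89 and 3.30, and LTBP2 (chr14:74498170-74612378, minus strand) at 3.28 and 3.45. LTBP4 and LTBP2 overlapped and had no order. LTBP2 is the member of the family that does not bind latent TGF-beta, while LTBP4 is known to carry mainly TGFB1. The lowest levels were those of TGFBR3 (chr1:91680343-91906335, minus strand), which encodes betaglycan, a co-receptor that presents ligand to the type II receptor, at 0.736 and 0.549, and of TGFB3 (chr14:75958099-75982991, minus strand), the third ligand gene, at 0.604 and 0.463. These last also overlapped. Part of the order rests on how length was counted. LTBP3 has 10298 exonic bases over all its transcripts and 4443 in its longest one, and with the longest transcript it stood at a mean of 19.5 CPM per kilobase, above TGFBR1 at 9.63. LTBP4 then also passed LTBP1, and TGFB3 passed TGFBR3.

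The order differed in polysomal RNA. In scramble polysomal RNA TGFB1 had a mean of 158.5 ± 49.2 CPM per kilobase (SD, n = 2), and TGFB2 at 15.3 ± 3.38 and TGFBR2 at 14.4 ± 2.63 overlapped behind it. LTBP3 (4.33 ± 0.42) and TGFBR1 (3.87 ± 0.35) also overlapped there. In knockdown polysomal RNA TGFBR2 (22.2 ± 0.48) stood clear above TGFB2 (12.2 ± 0.82), and LTBP2 (3.09 ± 0.72) and LTBP3 (3.005 ± 0.098) overlapped. By the longest transcript LTBP3 was instead clear of both, at 10.03 ± 0.98 against 4.07 ± 0.37 for TGFBR1 in scramble and 6.96 ± 0.23 against 3.28 ± 0.76 for LTBP2 in knockdown polysomal RNA. In bulk RNA, fewer cells with a transcript and less of it per cell cannot be told apart.

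**Figure D1:**
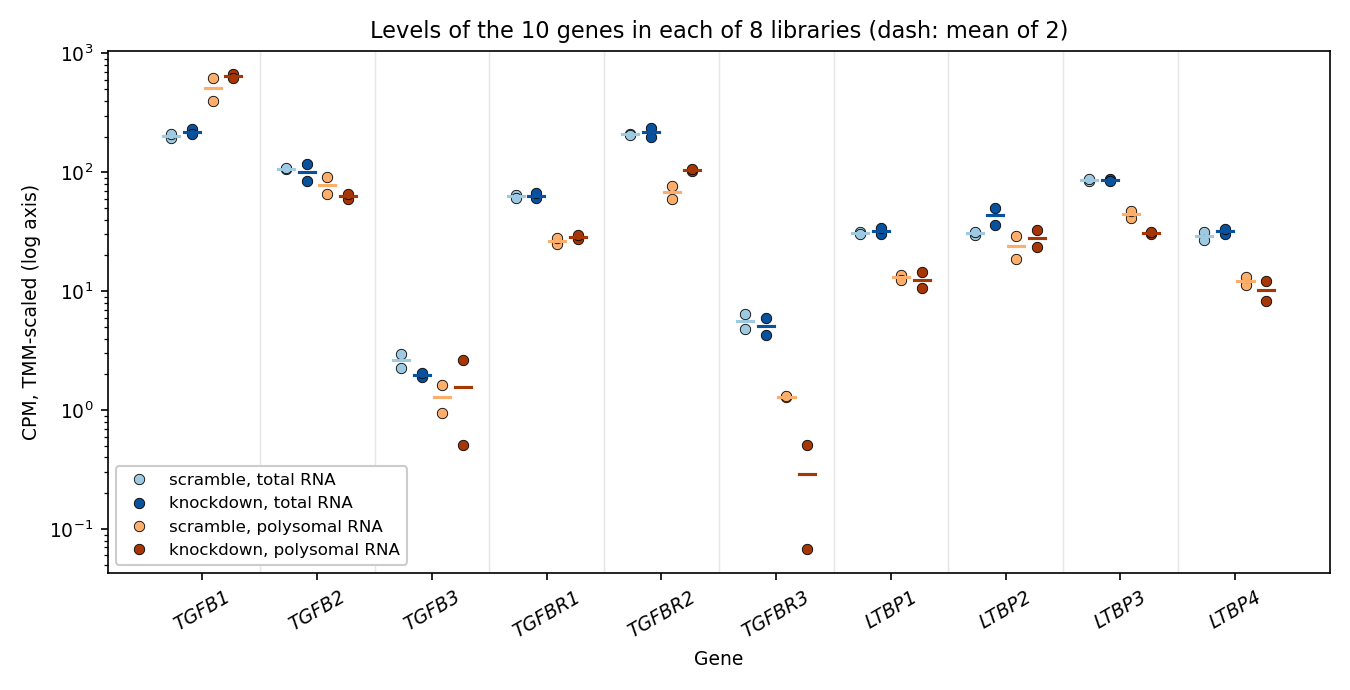
Level of each gene in CPM (log axis) in each of the 8 libraries, coloured by group, with a dash at the mean of the 2 libraries. TGFB1 is the gene whose polysomal libraries all lie above its total RNA libraries, and TGFBR3 is lowest in knockdown polysomal RNA, at 0.0675 and 0.509 CPM.

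The makeup of each class was computed per kilobase within a library, which makes it independent of the scaling between libraries. TGFB1 made up 73.9% and 75.05% of ligand transcripts in scramble total RNA and 81.0% and 73.4% in knockdown total RNA. In polysomal RNA its share was 90.4% and 91.6% in scramble and 94.4% and 93.6% in knockdown cells. The ratio of TGFB1 to TGFB2 per kilobase was 2.91 and 3.07 in scramble total RNA, 4.35 and 2.81 in knockdown total RNA, 9.62 and 10.96 in scramble polysomal RNA and 17.6 and 14.8 in knockdown polysomal RNA. All 4 polysomal ratios were thus above all 4 of total RNA, and both knockdown polysomal ratios were above both scramble ones. TGFB3 gave at most 0.738% of ligand transcripts in any library, or 1.18% by the longest transcript.

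Among receptors, TGFBR2 gave 81.6% to 82.9% of transcripts in the 4 total RNA libraries. Its share was 76.9% and 79.2% in scramble polysomal RNA and 84.3% and 83.6% in knockdown polysomal RNA. Per kilobase there were 4.77 and 4.89 TGFBR2 transcripts for each TGFBR1 transcript in scramble total RNA and 4.73 and 5.18 in knockdown total RNA. In polysomal RNA the ratio was 3.47 and 3.96 in scramble and 5.38 and 5.18 in knockdown cells. The scramble polysomal ratios were the lowest of the 8. The latent-binding class was the most even: in scramble total RNA, LTBP3 gave 41.9% and 44.2% of its transcripts and the other genes 16.6% to 21.8% each. The share of LTBP2 was 16.6% to 24.6% in total RNA and 20.4% to 39.98% in polysomal RNA, with the highest value in knockdown polysome replicate 1. By the longest transcript it was 10.3% to 16.0% in total RNA and 12.4% to 27.4% in polysomal RNA, and LTBP3 then gave 56.5% and 59.2% in scramble total RNA.

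**Figure D2:**
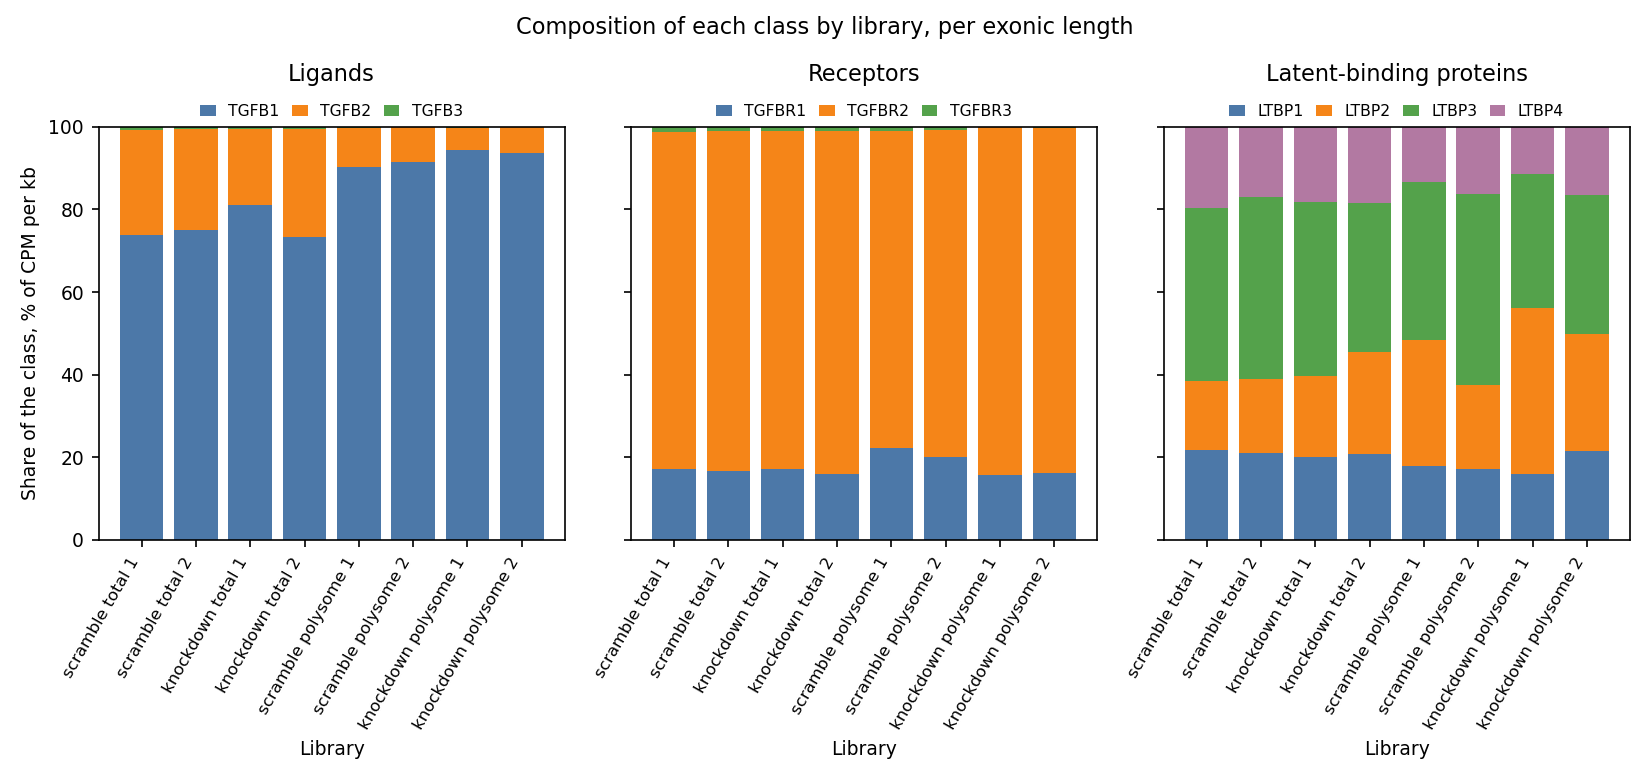
Share of each gene in its class, in percent of the class's summed CPM per kilobase of exonic length, in each library. TGFB1 takes 73.4% to 81.0% of ligand transcripts in total RNA and 90.4% to 94.4% in polysomal RNA.

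Polysomal RNA was then compared with total RNA within scramble and within knockdown cells, using edgeR's quasi-likelihood test with Benjamini-Hochberg adjusted p-values over all 16228 genes and a threshold of 0.05. TGFB1 was higher in polysomal RNA in both kinds of cells, and the receptor genes and 3 of the 4 latent-binding genes were lower. In scramble cells 1 of the 10 genes was called higher, against 29.7% of all tested genes, and 6 were called lower, against 33.7%. In knockdown cells 1 was called higher, against 28.9%, and 8 lower, against 34.1%. The median log2 difference of the 10 genes was -1.12 in scramble and -1.11 in knockdown cells, beside -0.17 and -0.16 over all tested genes. Both comparisons describe where transcripts lie relative to the rest of the transcriptome, and the next paragraphs give each gene by its role.

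Of the ligands, TGFB1 stood at 196 and 209 CPM in scramble total RNA and at 401 and 626 in scramble polysomal RNA. In knockdown cells it stood at 231.5 and 209 in total RNA and at 665 and 616 in polysomal RNA. Every polysomal library was above every total RNA library, and scramble polysome replicate 1 was the lowest of the polysomal values. The log2 difference was 1.34 ± 0.21 (SE, n = 2 per group, edgeR adjusted p = 0.00018) in scramble cells, a 2.53-fold level, and 1.54 ± 0.21 (edgeR adjusted p = 7e-05) in knockdown cells, a 2.91-fold level. These placed TGFB1 at the 80.2 and 85.1 percentiles of all tested genes. With libraries scaled by their totals alone, the median of all genes moved to -1.16 and -1.22, and the TGFB1 difference was 0.33 (edgeR adjusted p = 0.130) in scramble and 0.49 (edgeR adjusted p = 0.0357) in knockdown cells. The other 9 genes lay below 0 on both scales.

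TGFB2 stood at 107 and 108 CPM in scramble total RNA and at 66.3 and 90.9 in polysomal RNA, and at 84.6 and 118 against 60.05 and 66.03 in knockdown cells. Its polysomal values lay below its total RNA values in both kinds of cells. The log2 difference was -0.45 ± 0.19 (SE, edgeR adjusted p = 0.0618) in scramble cells, which missed the threshold, and -0.69 ± 0.20 (edgeR adjusted p = 0.0106) in knockdown cells, which passed. DESeq2 called both, with adjusted p = 0.0290 and 0.00175. The scramble difference also passed in edgeR without the filter on low counts (-0.61, adjusted p = 0.00352). With relative log expression (RLE) size factors it passed as well (-0.51, edgeR adjusted p = 0.0371), and with a library left out it ran from -0.76 to -0.35. The knockdown call was lost without knockdown total replicate 2 (-0.46, edgeR adjusted p = 0.105). TGFB3 had few reads, 89 and 61 counts in scramble total RNA and 60 and 62 in knockdown total RNA, against 30 and 16 in scramble and 39 and 6 in knockdown polysomal RNA. Its difference was -1.02 ± 0.62 (SE) in scramble and -0.29 ± 0.63 in knockdown cells, with edgeR adjusted p = 0.174 and 0.707. The scramble libraries did not overlap, and summed and scaled, total RNA held 2.03 times the polysomal level there (95% interval 1.45 to 2.89, counting error only) and 1.16 times in knockdown cells (0.817 to 1.67). TGFB3 was called in scramble cells without knockdown polysome replicate 1 (-1.10, edgeR adjusted p = 0.0338) or replicate 2 of that group (-1.100, edgeR adjusted p = 0.0305). In knockdown cells its difference was -2.03 (edgeR adjusted p = 0.0217) without the former and 0.30 without the latter.

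All 3 receptor genes were lower in polysomal RNA. TGFBR2 went from 211 and 206 CPM in scramble total RNA to 59.2 and 76.7 in polysomal RNA, and from 198 and 237 to 103 and 106 in knockdown cells. The groups were far apart, with the polysomal level at 32.6% of the total RNA level in scramble and 47.9% in knockdown cells. The log2 differences were -1.62 ± 0.17 (SE, edgeR adjusted p = 1.04e-05) and -1.06 ± 0.16 (edgeR adjusted p = 0.000205). TGFBR1 went from 64.4 and 61.2 CPM to 24.8 and 28.2 in scramble cells and from 60.7 and 66.7 to 27.7 and 29.7 in knockdown cells. It kept 42.2% and 45.1% of its total RNA level, with log2 differences of -1.24 ± 0.15 (SE, edgeR adjusted p = 3.05e-05) and -1.15 ± 0.15 (edgeR adjusted p = 5.87e-05).

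TGFBR3 had 192 and 128 counts in scramble total RNA and 136 and 181 in knockdown total RNA. In polysomal RNA it had 24 and 22 counts in scramble cells and 1 and 6 in knockdown cells. Summed over the 2 libraries and scaled, scramble total RNA held 4.33 times the polysomal level (95% interval 3.17 to 6.03, counting error only). In knockdown cells that ratio was 19.4 (9.29 to 48.6). The edgeR log2 differences were -2.10 ± 0.47 (SE, adjusted p = 0.00248) and -4.22 ± 0.61 (adjusted p = 0.000116), and the second rests on 7 polysomal reads. Leaving out knockdown polysome replicate 1 gave -3.41, and leaving out replicate 2 of that group gave -6.26.

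The latent-binding genes split. LTBP3 went from 85.2 and 88.3 CPM to 41.5 and 47.6 in scramble cells and from 88.6 and 83.9 to 30.2 and 31.7 in knockdown cells, with no overlap in either. Its log2 difference was -0.96 ± 0.14 (SE, edgeR adjusted p = 0.000129) in scramble and -1.48 ± 0.15 (edgeR adjusted p = 7.75e-06) in knockdown cells. LTBP1 fell from 31.6 and 30.02 to 13.8 and 12.5 CPM in scramble cells, a log2 difference of -1.23 ± 0.19 (SE, edgeR adjusted p = 0.000235), and LTBP4 from 31.5 and 26.7 to 11.4 and 13.2, a difference of -1.25 ± 0.22 (edgeR adjusted p = 0.000428). In knockdown cells LTBP1 fell from 30.04 and 34.2 to 10.6 and 14.4 CPM (-1.37 ± 0.20, edgeR adjusted p = 0.000125) and LTBP4 from 30.2 and 33.6 to 8.30 and 12.2 (-1.64 ± 0.22, edgeR adjusted p = 7.29e-05). Neither gene's polysomal libraries reached its total RNA libraries.

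LTBP2 differed least of the class. It stood at 29.8 and 31.4 CPM in scramble total RNA against 29.1 and 18.5 in polysomal RNA, where scramble polysome replicate 1 nearly reached the total RNA values. The log2 difference was -0.36 ± 0.25 (SE, edgeR adjusted p = 0.226) in scramble cells, -0.13 without scramble polysome replicate 2 and -0.83 (edgeR adjusted p = 0.0272) without scramble polysome replicate 1. In knockdown cells LTBP2 stood at 36.3 and 50.4 against 32.7 and 23.5 CPM, a difference of -0.62 ± 0.25 (SE, edgeR adjusted p = 0.0481). That call was lost without knockdown total replicate 2 (-0.40, edgeR adjusted p = 0.308) or knockdown polysome replicate 2 (-0.53, edgeR adjusted p = 0.149).

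**Figure D3:**
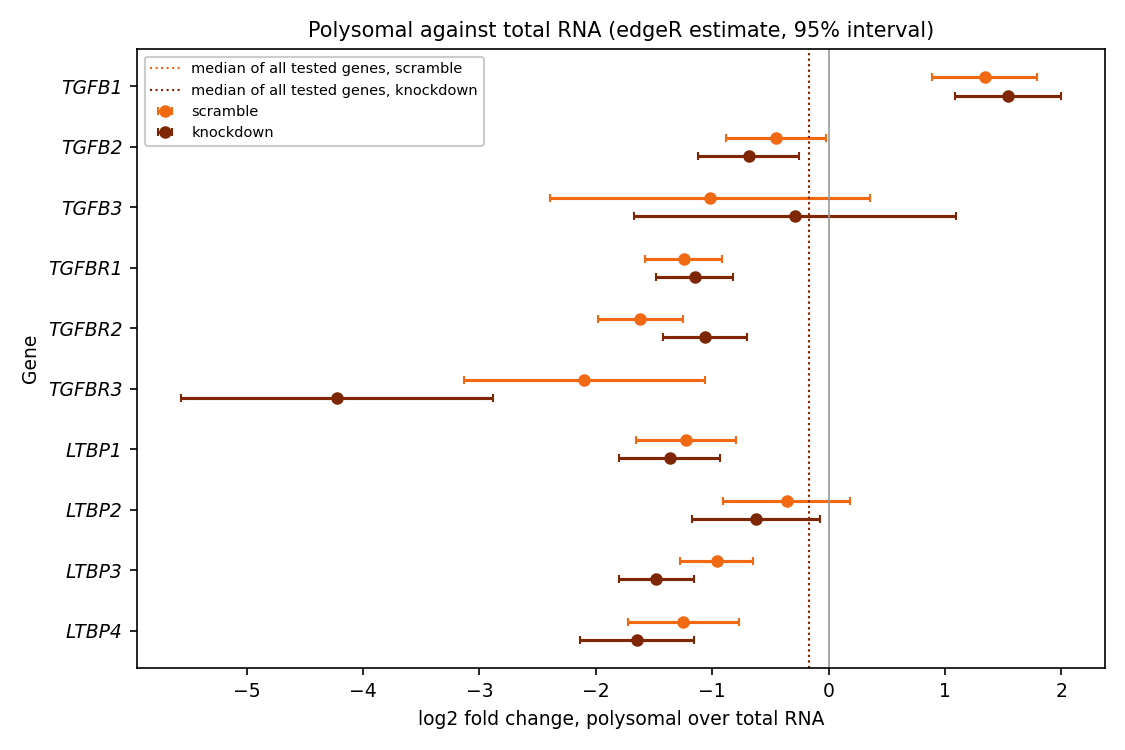
Log2 difference of polysomal over total RNA for each gene, in scramble (light) and knockdown (dark) cells, as the edgeR estimate with its 95% interval, and dotted lines at the median of all tested genes. TGFB1 lies at 1.34 and 1.54, to the right of 0, and every other estimate lies to the left.

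Across 12620 protein-coding genes with an annotated transcript, the polysome-to-total difference in scramble cells went down with transcript length. Spearman's rho was -0.60 with the length of the transcript and -0.61 with that of its coding sequence, given as a description over genes that share the same libraries. With these genes in 5 equal groups from the shortest to the longest transcripts, the median log2 difference was 1.47, 0.45, -0.30, -0.93 and -1.52. Of the 10 genes, 8 have transcripts of 4443 bases or more and fall in the 2 longest groups, and TGFB1 (2769 bases) and TGFB3 (2522 bases) are the shorter ones. Within its length group TGFB2 was at the 66.0 percentile in scramble and 56.1 in knockdown cells, TGFBR1 at 57.7 and 57.8, LTBP3 at 48.8 and 32.9, LTBP1 at 39.9 and 35.7, LTBP4 at 39.1 and 28.5, and TGFBR2 at 28.3 and 44.3. TGFBR3 was at 32.6 in scramble and 5.4 in knockdown cells, the latter from 7 reads. TGFB1 was at the 93.1 percentile of its length group in scramble and 94.7 in knockdown cells, and LTBP2, with the longest transcript of the 10 at 8567 bases, at 79.2 and 71.1. TGFB3 was at 11.6 and 30.0, from few reads.

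The 10 transcripts differ in their other annotated features. TGFB1 has a 5′ untranslated region of 867 bases, at the 96.2 percentile of these genes, with 71.2% G and C. TGFB2 is the opposite in base composition, with 41.1% G and C in its 5′ untranslated region (the 1.9 percentile) and 38.6% over the transcript. TGFBR1 has a short 5′ untranslated region of 117 bases with 81.2% G and C, and a 3′ untranslated region of 4887 bases. LTBP3 and LTBP4 are among the most G and C rich transcripts, with 67.8% and 67.3% (the 98.7 and 98.3 percentiles). Over all genes, the rho of the polysome-to-total difference with the G and C content of the transcript was 0.02 and with the length of the 5′ untranslated region -0.05.

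**Figure D4:**
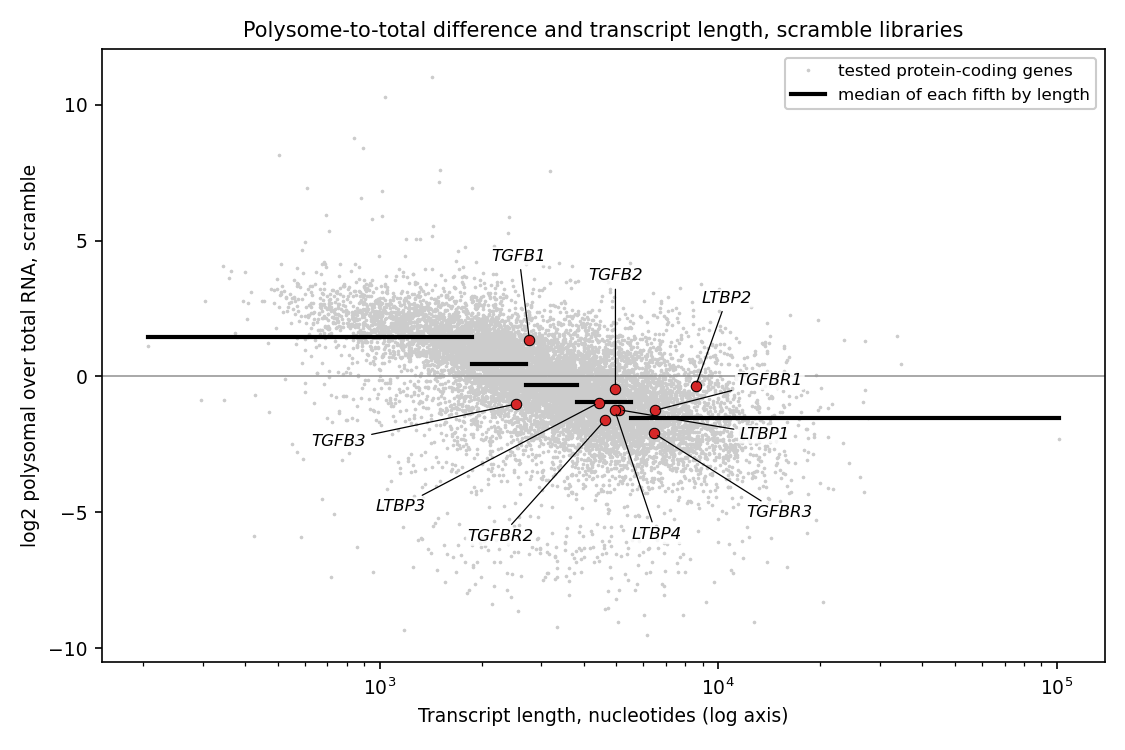
Log2 difference of polysomal over total RNA in scramble cells against transcript length (log axis) for tested protein-coding genes (grey), with black bars at the median of each of 5 length groups and the 10 genes in red. TGFB1 lies above and TGFB3 below the bulk of genes of their length, while TGFBR1, LTBP1, LTBP3 and LTBP4 lie -0.32 to 0.275 from their group's median.

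The EIF4G2 knockdown was compared with scramble in each fraction. In total RNA no ligand, receptor or latent-binding gene was called between the hairpins, with log2 estimates from -0.42 for TGFB3 to 0.50 for LTBP2. EdgeR called 0 of the 10, against 0% of all tested genes, and had no unadjusted p under 0.05 among them (0 of 10, against 3.68% of all genes), and DESeq2 called 0 (0.160%). For TGFB3 and TGFBR3, DESeq2 gave no adjusted p-value in this comparison. Its share is over all 16228 genes, with or without such a value. EIF4G2 itself had a log2 difference of -1.35 ± 0.18 (SE) with edgeR adjusted p = 0.0504 and DESeq2 adjusted p = 4.05e-10. The libraries of the hairpins did not overlap for 2 of the 10 genes, against 47.9% of all tested genes. The median log2 difference of the 10 genes was 0.04, beside 0.02 over all genes.

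The largest of these differences in total RNA was that of LTBP2, at 29.8 and 31.4 CPM in scramble and 36.3 and 50.4 in knockdown cells. Both knockdown values were above both scramble values, with a log2 difference of 0.50 ± 0.24 (SE, edgeR adjusted p = 1.00) and a 95% interval of -0.04 to 1.04. It was 0.25 without knockdown total replicate 2. TGFB3 was the other gene without overlap, lower in knockdown cells, at -0.42 ± 0.59 (SE, edgeR adjusted p = 1.00). For TGFB1 the estimate was 0.12 with an interval of -0.33 to 0.57, for TGFBR1 0.02 (-0.30 to 0.34, and -0.02 with library totals alone), for TGFBR2 0.06 (-0.29 to 0.42) and for LTBP3 -0.01 (-0.32 to 0.30). These intervals are before adjustment and mark no limit of detection. EdgeR did not call EIF4G2 here either, at -1.35 (adjusted p = 0.0504), so changes outside the intervals could also have been missed.

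In polysomal RNA, TGFBR2 was higher and LTBP3 and TGFBR3 were lower in knockdown cells by an unadjusted test. After adjustment TGFBR2 was called by DESeq2 and not by edgeR, and the other two by neither tool. EdgeR called 0 of the 10 genes, against 0.0123% of all tested genes, with 3 at an unadjusted p under 0.05 (13.3% of all genes). DESeq2 called 1 of the 10, TGFBR2, against 1.40% of all genes. The hairpins did not overlap for 4 of the 10 genes (TGFB2, TGFBR2, TGFBR3 and LTBP3), against 34.0% of all tested genes. The share without overlap is thus near that of all genes. EIF4G2 was called by both tools in polysomal RNA, at -1.60 ± 0.18 (SE, edgeR adjusted p = 0.0276).

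TGFBR2, the type II receptor gene, stood at 59.2 and 76.7 CPM in scramble and at 103 and 106 in knockdown polysomal RNA. Both knockdown libraries were above both scramble ones, and scramble polysome replicate 1, the library with fewer mitochondrial counts, was the lowest. The edgeR log2 difference was 0.62 ± 0.17 (SE, 95% interval 0.25 to 0.98, adjusted p = 0.190), a 1.53-fold level, and DESeq2 gave 0.62 with adjusted p = 0.0353. With each of the 8 libraries left out in turn, the DESeq2 adjusted p ran from 0.00815 to 0.211 and was above 0.05 in 5 of 8 cases. Without scramble polysome replicate 1 the edgeR difference was 0.42 (adjusted p = 0.299) and without scramble polysome replicate 2 it was 0.75 (adjusted p = 0.124). TGFBR1, whose kinase acts together with that of TGFBR2, stood at 24.8 and 28.2 against 27.7 and 29.7 CPM in polysomal RNA, a difference of 0.12 ± 0.15 (SE, edgeR adjusted p = 0.798).

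LTBP3 stood at 41.5 and 47.6 CPM in scramble and at 30.2 and 31.7 in knockdown polysomal RNA, again without overlap. The difference was -0.53 ± 0.14 (SE, 95% interval -0.84 to -0.21), with edgeR adjusted p = 0.197 and DESeq2 adjusted p = 0.0597. It lay between -0.64 and -0.49 when each library was left out in turn. For TGFBR3 the counts were 24 and 22 in scramble and 1 and 6 in knockdown polysomal RNA. The scramble level was 4.95 times the knockdown level (95% interval 2.22 to 13.0, counting error only), with edgeR adjusted p = 0.226 and DESeq2 adjusted p = 0.0808. The edgeR difference was -2.26 ± 0.67 (SE), and it was -1.38 without knockdown polysome replicate 1, which held the single read, and -4.22 without replicate 2 of that group. Fitted without the filter on low counts, TGFBR3 was called (-2.31, edgeR adjusted p = 0.0187).

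The ligand genes had no call in polysomal RNA. TGFB1 stood at 401 and 626 CPM in scramble and at 665 and 616 in knockdown cells, a difference of 0.32 ± 0.20 (SE, edgeR adjusted p = 0.525). The lower scramble value was that of replicate 1, and the difference was 0.01 without it and 0.61 without scramble polysome replicate 2. TGFB2 stood at 66.3 and 90.9 against 60.05 and 66.03 CPM, a difference of -0.32 ± 0.20 (SE, edgeR adjusted p = 0.515), with the lower scramble value only just above the higher knockdown one. TGFB3 spread from 0.509 to 2.63 CPM between the knockdown libraries alone. Of the remaining latent-binding genes, LTBP1 had a difference of -0.08 ± 0.20 (SE), LTBP4 of -0.27 ± 0.23 and LTBP2 of 0.24 ± 0.25, and their hairpin groups overlapped.

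**Figure D5:**
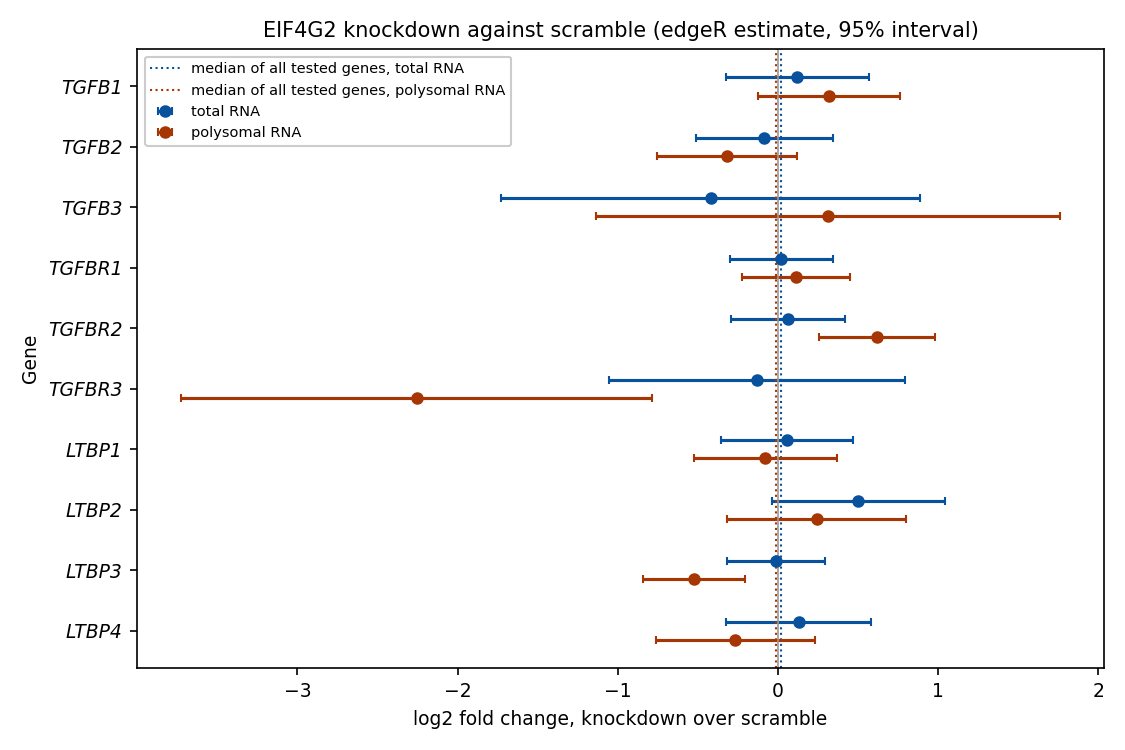
Log2 difference of knockdown over scramble for each gene in total RNA (blue) and polysomal RNA (brown), as the edgeR estimate with its 95% interval, and dotted lines at the median of all tested genes. In polysomal RNA the intervals of TGFBR2 (0.25 to 0.98), LTBP3 (-0.84 to -0.21) and TGFBR3 (-3.73 to -0.79) do not include 0, before adjustment for 16228 genes. The spread behind all intervals was estimated over both fractions together, so the polysomal intervals may be too narrow.

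Whether the knockdown changed the polysome-to-total ratio was tested as the interaction of hairpin and fraction. EdgeR called 0 of the 10 genes, against 0% of all tested genes, with 3 at an unadjusted p under 0.05 (6.27% of all genes), and DESeq2 called 0 (0.0246%). The 3 were TGFBR2 at 0.56 ± 0.23 (SE), LTBP3 at -0.52 ± 0.20 and TGFBR3 at -2.13 ± 0.80, each with edgeR adjusted p = 0.776. This comparison shares its polysomal libraries with the one before and is no second observation of these genes. The other estimates were 0.20 for TGFB1, -0.23 for TGFB2, 0.73 for TGFB3, 0.09 for TGFBR1, -0.14 for LTBP1, -0.26 for LTBP2 and -0.40 for LTBP4, with edgeR adjusted p from 0.848 to 0.977. The 4 latent-binding genes had negative estimates, as did 9074 of all 16228 genes. LTBP1 was at 0.0546 and LTBP4 at -0.15 without knockdown polysome replicate 1, and LTBP2 was at 0.0966 without scramble polysome replicate 1. TGFBR3 ran from -4.08 to -1.23 without knockdown polysome replicate 2 or 1, and TGFBR2 was at 0.38 without scramble polysome replicate 1.

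Other genes of the pathway were described from 5 lists. Of 20 genes for activation and docking of the latent complex 19 were tested, and in scramble cells 2 were called higher and 10 lower in polysomal RNA, against 29.7% and 33.7% of all genes, with a median of -0.79. MMP14, a membrane protease, fell from a mean of 698 CPM in total RNA to 77.2 in polysomal RNA (-3.18 ± 0.16, SE, edgeR adjusted p = 4.27e-07). FBN2, which encodes a fibrillin, fell from 26.7 to 4.30 CPM, and EFEMP2, which encodes the matrix protein fibulin-4, rose from 74.6 to 237 CPM. THBS1, which encodes thrombospondin 1, an activator of latent TGF-beta, had a mean of 1232 CPM in scramble and 2111 in knockdown total RNA (0.78 ± 0.21, SE, edgeR adjusted p = 1.00, DESeq2 adjusted p = 0.0870). In polysomal RNA it was not higher, at 511 CPM in scramble and 452.5 in knockdown cells (-0.18 ± 0.21, SE, edgeR adjusted p = 0.769). Its interaction estimate was -0.95 ± 0.29 (SE, edgeR adjusted p = 0.776). PLAT, which encodes tissue plasminogen activator, had a mean of 73.9 CPM in scramble and 36.95 in knockdown polysomal RNA (-0.999 ± 0.17, SE), with edgeR adjusted p = 0.157 and DESeq2 adjusted p = 0.00011. The PLAT means were also lower in knockdown total RNA, at 70.3 CPM against 105.1 in scramble cells (-0.58 ± 0.16, SE), called by neither tool. For PLAT the interaction estimate was -0.42 ± 0.23 (SE, edgeR adjusted p = 0.776). EMILIN1, whose product restrains processing of the TGF-beta precursor, had a mean of 2.28 CPM in scramble and 1.03 in knockdown polysomal RNA, a difference of -1.18 ± 0.48 (SE, edgeR adjusted p = 0.331). In the 3 knockdown comparisons edgeR called 0 of these 19, with 4 at an unadjusted p under 0.05 between the total RNA libraries (3.68% of all genes), 4 between the polysomal ones (13.3%) and 1 in the interaction (6.27%). DESeq2 called MMP14 and PLAT in polysomal RNA (1.40% of all genes) and no gene in the others. MMP14 was lower there, at 54.4 CPM in knockdown against 77.2 in scramble cells (-0.50 ± 0.15, SE, DESeq2 adjusted p = 0.0398). In total RNA its means were 608 CPM in knockdown and 698 in scramble cells (-0.20 ± 0.15, SE).

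All 8 genes for co-receptors and other type I and type II receptors were tested. In scramble cells 0 were called higher and 5 lower in polysomal RNA by edgeR (unadjusted p under 0.05 for 5 genes, and 5 calls by DESeq2), against 29.7% and 33.7% of all genes, with a median of -0.74. ACVR1B, an activin type I receptor gene, fell from a mean of 30.7 to 7.83 CPM (-1.97 ± 0.20, SE, edgeR adjusted p = 9.38e-06), and ACVR1 fell from 17.3 to 9.40 CPM. ACVR2B and ACVRL1 were also lower, at -1.60 and -0.88. Of the 5 SMAD genes, which encode the pathway's signal transducers and inhibitors, 1 was called higher and 2 lower, beside the same shares. SMAD3 fell from a mean of 115 to 31.8 CPM (-1.86 ± 0.14, SE, edgeR adjusted p = 1.78e-06) and SMAD4 from 54.8 to 28.0, while SMAD2 rose from 58.6 to 80.00 (0.45 ± 0.14, SE, edgeR adjusted p = 0.0153). SMAD7, an inhibitor induced by the pathway, had means of 19.1 and 24.6 CPM in scramble and knockdown total RNA (0.37 ± 0.17, SE, edgeR adjusted p = 1.00), and SMAD6 had means of 8.29 and 7.17. In the knockdown comparisons edgeR and DESeq2 called 0 genes of both lists. At an unadjusted p under 0.05 there was 1 of each in polysomal RNA (13.3% of all genes), ACVR1B (-0.82) and SMAD3 (-0.34), and 0 in total RNA (3.68%) and in the interaction (6.27%).

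Ligand traps and negative regulators had 9 of 12 genes tested, without LTBP2, and in scramble cells 5 were called higher and 2 lower in polysomal RNA (29.7% and 33.7% of all genes), with a median of 1.12. PMEPA1, a feedback inhibitor, rose from a mean of 21.7 to 149 CPM and TGIF1, a SMAD corepressor gene, from 25.3 to 77.4, while SKI, another corepressor gene, fell from 97.5 to 10.1. TGIF2 had a difference of -0.23 ± 0.30 (SE). BGN, which encodes the ligand-binding proteoglycan biglycan, had means of 49.5 CPM in scramble and 26.6 in knockdown total RNA (-0.90 ± 0.19, SE, edgeR adjusted p = 0.556). It was the 1 gene of this list that DESeq2 called there (adjusted p = 0.00491), against 0.160% of all genes. DESeq2 called 0 of the list in polysomal RNA (1.40% of all genes) and in the interaction (0.0246%). EdgeR called 0 of the 9 in the knockdown comparisons, with unadjusted p-values under 0.05 for 2 of them in total RNA (3.68% of all genes), 2 in polysomal RNA (13.3%) and 0 in the interaction (6.27%).

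Of 16 TGF-beta target genes 15 were tested, and 11 were called higher and 3 lower in scramble polysomal RNA (29.7% and 33.7% of all genes), with a median of 2.099 beside -0.17 over all genes. NOX4, which encodes a hydrogen peroxide-producing oxidase, rose from a mean of 1.05 CPM in total RNA to 41.1 in polysomal RNA (5.28 ± 0.28, SE, edgeR adjusted p = 4.73e-07). TAGLN, an actin-binding protein of contractile cells, rose from 130.0 to 1760 CPM, IL11 from 4.57 to 50.9 and LOX, a collagen-crosslinking enzyme, from 49.4 to 212, while the collagen gene COL1A2 fell from 266 to 91.2. Between the hairpins edgeR called 0 of the 15 in each comparison. Unadjusted p-values under 0.05 numbered 4 for total RNA (3.68% of all genes), 6 for polysomal RNA (13.3%) and 4 for the interaction (6.27%). DESeq2 called COL1A1, NOX4 and SNAI2 in polysomal RNA (1.40% of all genes) and 0 in total RNA (0.160%) and the interaction (0.0246%). COL1A1 was lower, with means of 1337 CPM in scramble and 891 in knockdown polysomal RNA, beside 3817 and 4108 in total RNA. NOX4 had means of 41.1 CPM in scramble and 74.1 in knockdown polysomal RNA (0.85 ± 0.21, SE, DESeq2 adjusted p = 0.0338) and SNAI2, a transcription factor gene, 17.8 and 42.5 (1.26 ± 0.25, SE, DESeq2 adjusted p = 0.00402). In total RNA the means were also higher in knockdown cells: 1.05 and 2.16 CPM for NOX4 and 9.66 and 16.7 for SNAI2. Those log2 differences were 1.03 ± 0.30 and 0.79 ± 0.25 (SE), with DESeq2 adjusted p = 0.258 and 0.545. The interaction estimates were -0.18 ± 0.36 for NOX4 and 0.47 ± 0.35 for SNAI2 (SE, edgeR adjusted p = 0.967 and 0.844). COL1A2 had means of 91.2 CPM in scramble and 43.6 in knockdown polysomal RNA, with DESeq2 adjusted p = 0.0595. In total RNA 14 of the 15 target genes had a positive estimate, with a median of 0.24, beside 8575 of 16228 genes tested with a median of 0.02. In polysomal RNA 6 were above and 9 below 0 (median -0.18, beside -0.01 over all genes), and in the interaction 3 were above and 12 below (median -0.41, beside -0.07).

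Profiles over the 8 libraries were compared by the Euclidean distance between log2 CPM values, each profile centred on its own mean, among 8895 other genes with a mean log2 CPM of at least 3. The nearest genes were ULBP2 (distance 0.215) and SLC19A2 (0.271) for TGFB1, ADAMTS6 (0.232) and PCYOX1 (0.294) for TGFB2, and COG2 (0.489) and TBCEL (0.792) for TGFB3. For the receptors they were GYS1 (0.164) and MTA2 (0.198) for TGFBR1, MECOM (0.315) and MPRIP (0.321) for TGFBR2, and POLQ (1.04) and FOXJ2 (1.08) for TGFBR3. For the latent-binding genes they were FKBP9 (0.269) and FXR2 (0.289) for LTBP1, IL7R (0.461) and FAM131A (0.491) for LTBP2, OS9 (0.195) and GEMIN4 (0.196) for LTBP3, and PABPN1 (0.268) and UNC45A (0.273) for LTBP4. TGFB3 and TGFBR3 are themselves below a mean log2 CPM of 3, so their profiles and neighbours rest on few reads. Within the 10 genes, LTBP1 and LTBP4 were each other's nearest (0.411), with 46 other genes nearer to LTBP1 and 20 nearer to LTBP4. TGFBR1 was the nearest to TGFBR2 (0.577), with 47 other genes nearer. TGFB1 was far from all the others, with TGFB2 the nearest at 2.94 and 5733 other genes nearer than that.

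Some reads could belong to overlapping genes, since the strand setting of the counting was not given in the sources used here. HNRNPUL1 on the opposite strand shares 215 exonic bases with TGFB1. As a whole gene it had 20173 counts, before scaling, in the 2 scramble total RNA libraries and 4374 in the scramble polysomal ones. Reads within the shared bases were not counted apart, and their part in the TGFB1 values was not tested. TGFB2-OT1 shares 1371 of the 5151 exonic bases of TGFB2 on the same strand and was at 0 counts in all 8 libraries. Whether reads in these bases were counted for TGFB2 or left out is not known. If they were left out, its level per kilobase and its ligand share would be too low and the TGFB1 to TGFB2 ratios too high. TGFB3-AS1 shares 163 bases with TGFB3 on the opposite strand and had 5 counts or fewer in each group. LTBP1 and LTBP2 each overlap an antisense transcript that was not analysed here.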

How the data were processed

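The authors deposited raw counts per gene symbol, whole numbers per the file headers and values. Per the submitters' processing notes, which give no roles, the genome build was GRCh38 and the tools were HISAT2 (2.1.0), featureCounts, Subread (2.0.1), Trimmomatic (0.36), bcl2fastq (2.19.0), DESeq2 and R (4.1.2). The sources used here did not give the annotation, the handling of reads with several matches, or how polysomes were isolated.

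Groups came from the sample labels. The counts entered edgeR 4.0.16 in R 4.3.3, with 1 mean per group over all 8 libraries, filterByExpr, TMM, robust quasi-likelihood and 4 residual degrees of freedom. Benjamini-Hochberg adjustment ran over 16228 genes. Standard errors are the log2 fold change over the square root of F. DESeq2 1.42.0 was the alternative. The fit was tested on simulated data. Lengths and transcript features came from GENCODE release 29.

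The genes and lists were chosen with earlier results of these data known. The 10 genes and EIF4G2 are named, and from each list the 3 smallest p-values between fractions in scramble cells and the 2 smallest in each knockdown comparison. COL1A1 is outside this rule and was named after its value was seen. Alternatives were DESeq2, other scalings, no filter, a replicate block, the 4 libraries compared alone and each library left out. DESeq2 with a library left out or on 4 libraries was chosen after seeing the data.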

Additional observations from a re-analysis of the deposited data

How the results depend on the processing

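Depth limits TGFB3 and TGFBR3 most, with 1 to 39 counts in each polysomal library, and leaving out a library leaves an arm with 1 sample that is assumed to vary like the other groups. Every call between fractions for TGFB1, the 3 receptors, LTBP1, LTBP3 and LTBP4 kept its direction under all alternatives run, and the TGFB1 call in scramble cells was lost with library totals alone.

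The knockdown counts moved most. In total RNA the genes called went from 0 to 26 by DESeq2, 38 without the filter and 10 with the 4 libraries alone. In polysomal RNA they went from 2 to 228 by DESeq2, 1 with library totals (0 higher, 1 lower, against 1 and 1) and 502 without the filter, and ran from 0 to 183 with a library left out. Of the 10 genes, 1 was called by DESeq2 and 1 without the filter, in place of 0. For the interaction 4 genes were called by DESeq2 and 64 without the filter, in place of 0, and 0 to 2 with a library left out. DESeq2 with a library left out called 48 to 721 genes in polysomal RNA and 5 to 45 in total RNA, and 12 in polysomal RNA with the 4 libraries alone, where TGFBR2 was at 0.63 (DESeq2 adjusted p = 0.566). The cause was not tested. The interaction could not be run on 4 libraries.

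Between fractions in scramble cells, 4827 genes were called higher and 5466 lower. With library totals alone these were 2134 and 8852 (in knockdown cells 1777 and 9218), and TGFB2 (-1.46), TGFB3 (-2.01) and LTBP2 (-1.35) were then also called in scramble cells.

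Single estimates that crossed 0 were not only those of genes with few reads, as those of TGFB1 and LTBP2 did so too. In total RNA, with a library left out, TGFB2 ran from -0.35 to 0.13, TGFBR1 from -0.0501 to 0.0859, TGFBR2 from -0.0778 to 0.19 (by DESeq2 -0.114 to 0.184), TGFBR3 from -0.39 to 0.0987 (by DESeq2 -0.428 to 0.0871), LTBP1 from -0.0389 to 0.15 and LTBP3 from -0.0508 to 0.0288. TGFBR1 was at -0.0158 with library totals. In polysomal RNA TGFB3 ran from -1.37 to 0.96, LTBP1 from -0.38 to 0.10 and LTBP2 from -0.12 to 0.58. In the interaction TGFB1 ran from -0.0904 to 0.51, TGFB2 from -0.45 to 0.0287, TGFB3 from -0.93 to 1.40, LTBP1 from -0.42 to 0.0546 and LTBP2 from -0.60 to 0.10. Between fractions in knockdown cells TGFB3 ran from -2.03 to 0.30.

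Same-numbered libraries showed no strong shared deviation across genes (correlations of -0.092 to 0.026). With so few libraries per group, these values cannot tell whether same-numbered libraries came from the same culture, and the labels do not say. With the replicate number as a block, 3 genes were called in polysomal RNA, 0 in total RNA and 0 for the interaction, TGFBR2 was at 0.63 (edgeR adjusted p = 0.214), and TGFB2 in scramble cells at -0.47 was called between fractions (edgeR adjusted p = 0.0288). Scaling by plain totals moved 35 of 40 group means in CPM, and the longest transcript 25 of 40 per kilobase, by more than their SD.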
